A study of Mus musculus with 22 samples.

Results

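The 8 genes described here are targets of the hypoxia-inducible factors (HIF) whose products act on mitochondria: Bnip3, Bnip3l, Higd1a, Cox4i2, Ndufa4l2, Fam162a, Mxi1 and Lonp1. They were chosen by name, by taking every biological spot of a 2-colour Agilent microarray whose gene name was a member. This gave 14 probes for the 8 genes, of 55681 biological probes on the array, and 7 members were measured among the 16576 genes tested. The tissue was epididymal white fat, a large abdominal fat pad, and the mice were inbred C57BL/6JOlaHsd males. The hypoxia group was 10 mice kept for 6 hours at 12% oxygen, and the normoxia group was 12 mice kept for the same 6 hours at 20.9% oxygen. All mice were 10 weeks old on arrival and ate purified diets, in which fat gave 10% of the energy during the first 3 weeks and 40% during the next 6 weeks, and they were fasted for the exposure. Low-fat feeding is also named in the treatment text, with no mice assigned to it, and diet is no term of the model. Each array compared the Cy5-labelled RNA of 1 mouse with the same Cy3-labelled pool of all samples.

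HIF is a pair of transcription factor subunits, one of which is hydroxylated in oxygenated cells, bound by the VHL protein and degraded. When oxygen falls, the subunit accumulates and the pair binds a short DNA core, ACGTG or GCGTG, near its target genes. Several of those targets act on mitochondria: Bnip3 and Bnip3l (also called Nix) encode outer membrane receptors that hand mitochondria to autophagy, a removal called mitophagy. Cox4i2 encodes an isoform of a cytochrome c oxidase subunit, Ndufa4l2 a relative of the oxidase-associated protein Ndufa4, and Higd1a an inner membrane protein that associates with the respiratory chain. Lonp1 is a protease of the mitochondrial matrix, Fam162a is a mitochondrial protein linked to cell death in hypoxic human cells, and Mxi1 is a partner of Max that opposes Myc. White fat is rich in adipocytes, which hold few mitochondria for their size, but it also contains vessels, macrophages and a mesothelial lining.

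The value of a member depends on the transcript stretch its probe binds, so 30 of the 60 bases of each probe that stands for a gene are given here, with the probe of Mxi1, the member that was not measured. The stretches read 5′ to 3′ in the sense of the transcript, and capitals mark AATAAA, the usual signal for cleavage and polyadenylation, which 4 of the 14 member probes contained. Coordinates of the stretches are those of the array files, on mm9.
Bnip3 (chr7:146082653-146082682, minus strand): caggtgtgctaaAATAAAagtgacatttta
Bnip3l (chr14:67606210-67606239, minus strand): acctgcatcattcatgctagaagctgtgtt
Higd1a (chr9:121758675-121758704, minus strand): ttgaggttacgtgtttgtatctacAATAAA
Cox4i2 (chr2:152590726-152590755, plus strand): actcccttctccAATAAAagcagcctgctt
Ndufa4l2 (chr10:126954179-126954208, plus strand): gggcaaaatacaatttcatttaacaaattg
Fam162a (chr16:36044032-36044061, minus strand): aaggctgcaacaagaaacctgctttacaaa
Mxi1 (chr19:53450268-53450297, plus strand): catacacataaaacttgaacttgtatttag
Lonp1 (chr17:56753725-56753754, minus strand): ctgtagaatcatgAATAAAgaaaacctttc

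RefSeq promoters of assembly GRCm38.p6 were matched for 5 of the 8 members, with 7 start sites, and the 250 bases before each start were searched on both strands for ACGTG and GCGTG. Where the letters read CACGTG, a match was counted on each strand. Lonp1 held 6 matches, Fam162a 6, Bnip3 5 and Higd1a 2, while the 3 Mxi1 starts held 0, 1 and 1. Of 32851 mouse promoters of this length, 38.6% held at least 1 match, and 1.01% held at least 5. The 3 promoters with at least 5 are shown with the matches of either strand in capitals, because they allow the array values of these genes to be set beside the density of the HIF core.
Bnip3 (GRCm38.p6, chr7:138909507-138909756, minus strand): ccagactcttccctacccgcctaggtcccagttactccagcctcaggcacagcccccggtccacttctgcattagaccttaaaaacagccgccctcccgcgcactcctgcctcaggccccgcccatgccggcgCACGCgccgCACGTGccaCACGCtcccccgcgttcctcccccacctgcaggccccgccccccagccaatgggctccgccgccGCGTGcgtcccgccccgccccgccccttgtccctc
Fam162a (GRCm38.p6, chr16:36071562-36071811, minus strand): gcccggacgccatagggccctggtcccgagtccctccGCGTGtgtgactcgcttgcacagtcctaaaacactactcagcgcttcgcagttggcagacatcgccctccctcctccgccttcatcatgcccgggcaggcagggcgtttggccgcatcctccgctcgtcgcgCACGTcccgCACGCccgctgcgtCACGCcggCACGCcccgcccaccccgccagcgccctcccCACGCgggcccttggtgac
Lonp1 (GRCm38.p6, chr17:56626904-56627153, minus strand): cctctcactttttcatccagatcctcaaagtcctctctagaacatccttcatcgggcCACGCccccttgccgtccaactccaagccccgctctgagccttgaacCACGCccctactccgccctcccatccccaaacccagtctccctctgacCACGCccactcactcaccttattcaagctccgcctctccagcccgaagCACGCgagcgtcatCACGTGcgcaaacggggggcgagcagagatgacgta
The matches nearest to the start lay 35 bases upstream in Bnip3, 19 bases upstream in Fam162a and 35 bases upstream in Lonp1. A match is a description of the letters and not a measured HIF site.

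The arrays lay on 6 slides, of which 5 carried 2 hypoxia and 2 normoxia arrays each and 1, slide 2, carried normoxia arrays alone. In Cy5, 15.6% to 76.8% of the spots of an array were well above background, and on the 4 arrays of slide 1 (hypoxia replicates 5 and 7, normoxia replicates 3 and 5) it was at most 18.9%. The tissue label was checked with 10 adipocyte markers, all of which were well above background on all 22 arrays. In bulk tissue, fewer cells of a type and less RNA per cell cannot be told apart. All values below are log2 ratios of a mouse to the pool unless stated otherwise, and a difference is hypoxia minus normoxia on that scale.

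No measured member passed the test between hypoxia and normoxia. Differences lay above 0 for 4 (Bnip3, Higd1a, Cox4i2 and Ndufa4l2) and below 0 for 3 (Bnip3l, Fam162a and Lonp1), where 50.4% of all genes tested lay above 0. The median difference was 0.01 for the members and 0.0011 for all genes tested. In limma's test with Benjamini-Hochberg adjustment over all genes tested, 0 of 7 passed, with adjusted p between 0.949 and 0.997, and 0 of 7 had an unadjusted p under 0.05. Over all genes tested the same rules called 0 genes (0%) and 879 genes (5.30%), so that the members' count stood beside a table in which no gene passed. The groups overlapped for all 7 members, as they did for every gene tested (0% not overlapping). With this processing the members had standard errors of 0.08 to 0.12, against a median of 0.10 over all genes tested. The precision depends on the processing for a dim probe. For Cox4i2 the standard error was 0.08 here and 0.23 with the Agilent log ratio, so the interval ends below are not firm limits. The upper ends of the 95% confidence intervals correspond to 1.07-fold to 1.31-fold, and the lowest lower end to 0.844-fold.

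**Figure D1:**
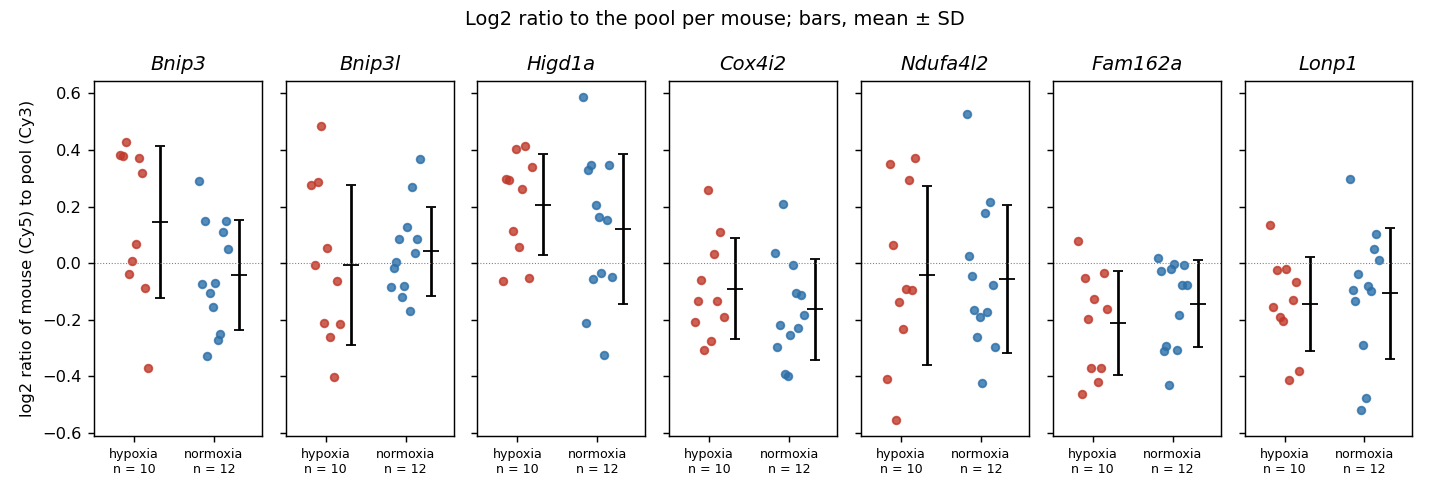
Log2 ratio of each mouse to the pool (vertical axis) for the 7 measured members, with 10 hypoxia mice in red left of 12 normoxia mice in blue. Black marks give the mean ± SD of each group. The groups overlap in every panel, and Bnip3 has the largest distance between means (0.19).

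Bnip3 was the member with the largest difference. Its ratio had a lowest value of -0.37, a median of 0.19 and a highest value of 0.43 in hypoxia mice, against -0.33, -0.07 and 0.29 in normoxia mice. The 5 hypoxia replicates 1, 2, 3, 7 and 8 stood above all normoxia mice, while hypoxia replicate 10 was the lowest mouse of all 22. The mean was 0.15 ± 0.27 in hypoxia (SD, n = 10) and -0.04 ± 0.19 in normoxia (SD, n = 12), and 8 of 10 hypoxia mice lay above the normoxia mean. The difference was 0.19 ± 0.10 (SE), or 1.14-fold with a 95% confidence interval of 0.991 to 1.31, and did not pass (limma, unadjusted p = 0.0664, adjusted p = 0.949). Of all genes tested, 1728 (10.4%) had an unadjusted p under 0.1. Within the 5 slides that carry both groups the difference lay above 0 in 5 of 5, between 0.07 on slide 3 and 0.37 on slide 6, with a mean of 0.18. Each slide held 2 mice of each group. They are among the mice of the overall difference, so the slides are no further test. The share of all genes with 5 of 5 slides on one side is not given.

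Bnip3l, the paralog of Bnip3 and the mitophagy receptor known from maturing red blood cells, stood on the other side of 0. Its lowest, median and highest ratios were -0.40, -0.04 and 0.48 in hypoxia and -0.17, 0.02 and 0.37 in normoxia. On this probe the hypoxia mice were the more scattered: 4 lay below every normoxia mouse and 1, replicate 4, above every one. The other Bnip3l probes did not all show this. Their SDs in hypoxia and normoxia were 0.17 and 0.38, 0.24 and 0.26, and 0.27 and 0.15. The difference was -0.05 ± 0.10 (SE; limma, adjusted p = 0.994), and it was above 0 on 1 of the 5 slides, slide 6, at 0.26.

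Among the members tied to the respiratory chain, Cox4i2 is the oxidase subunit isoform best known from lung, where it was described as oxygen-sensitive. Its ratios were -0.31, -0.13 and 0.26 (lowest, median, highest) in hypoxia and -0.40, -0.20 and 0.21 in normoxia. Hypoxia replicate 5 was the highest mouse, and it lies on slide 1. The difference was 0.07 ± 0.08 (SE; limma, adjusted p = 0.985). The probe was dim: it was not well above background on the 4 arrays of slide 1, which showed a difference of 0.45, against -0.19 to 0.17 on the other slides with both groups. Without slide 1 the difference was -0.01. The Agilent log ratio, with its own background subtraction, gave 0.33 (unadjusted p = 0.157) for the same probe.

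Ndufa4l2, which lowers the use of oxygen by the respiratory chain in hypoxic cells, showed nearly the same centre in both groups. Its ratios were -0.55, -0.09 and 0.37 in hypoxia and -0.42, -0.12 and 0.53 in normoxia. The SD was 0.32 in hypoxia, the widest of the 7 members in that group, and 0.26 in normoxia, and normoxia replicate 1 was the highest mouse. The difference was 0.01 ± 0.12 (SE; limma, adjusted p = 0.997), with a 95% confidence interval of -0.23 to 0.25. Its probe was well above background on 20 of 22 arrays, all but hypoxia replicate 7 and normoxia replicate 5. Its sign turned when any of 6 single arrays was left out (hypoxia replicates 2, 8 and 10, normoxia replicates 5, 7 and 12), with values down to -0.03.

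Higd1a had ratios of -0.06, 0.28 and 0.42 in hypoxia and -0.32, 0.16 and 0.59 in normoxia. All 10 hypoxia mice lay inside the range of the normoxia mice. The difference was 0.09 ± 0.10 (SE; limma, adjusted p = 0.985), above 0 on 2 of the 5 slides, with a range of -0.16 to 0.29.

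Lonp1, the protease reported in cultured cells to degrade the common oxidase isoform Cox4i1 when the hypoxic isoform is made, also stayed within the spread of the normoxia mice. Its ratios were -0.41, -0.14 and 0.13 in hypoxia and -0.52, -0.09 and 0.30 in normoxia, and all 10 hypoxia mice fell inside the normoxia range. The difference was -0.04 ± 0.09 (SE; limma, adjusted p = 0.994), with a within-slide range of -0.12 to 0.13.

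Fam162a had ratios of -0.46, -0.18 and 0.08 in hypoxia and -0.43, -0.08 and 0.02 in normoxia. Hypoxia replicate 1 was the highest mouse and hypoxia replicate 2 the lowest, so the hypoxia group enclosed the normoxia group. The difference was -0.07 ± 0.08 (SE; limma, adjusted p = 0.985). This probe was printed 10 times on each array, which gives a measure of technical spread. The SD among its spots on 1 array had a median of 0.22 (range 0.06 to 0.42), and the standard error of an array's mean over the spots had a median of 0.07. The SD between mice of those array means was 0.18 in hypoxia and 0.15 in normoxia. Single spots of the same sequence on the same array differed by about as much as array means did between mice.

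Mxi1, the Myc antagonist, had 1 probe, which was well above background on 0 of 10 hypoxia arrays and 1 of 12 normoxia arrays. It did not reach the filter on dim probes, and no difference is given.

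The genes with several probes allowed the same gene to be read more than once. All 3 Bnip3 probes lie within one stretch on the minus strand of chromosome 7, with gaps of 60 and 44 bases between neighbours. Their differences were 0.19, 0.16 and 0.05, all above 0, and the last came from a dim probe that was not well above background on the 4 arrays of slide 1. The 3 probes share the mice and lie close together, so they are not independent of each other. The dim probe lies downstream of the AATAAA in the probe that stands for the gene. Whether it reads the same transcript was not tested. The 4 Bnip3l probes gave -0.05 for the probe that stands for the gene and 0.08, 0.08 and -0.01 for the others. The 2 Higd1a probes, which lie 2886 bases apart on mm9, gave 0.09 for the brighter and -0.02 for the other. None of the 13 tested probes passed (limma, adjusted over the probes tested, smallest adjusted p = 0.969).

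**Figure D2:**
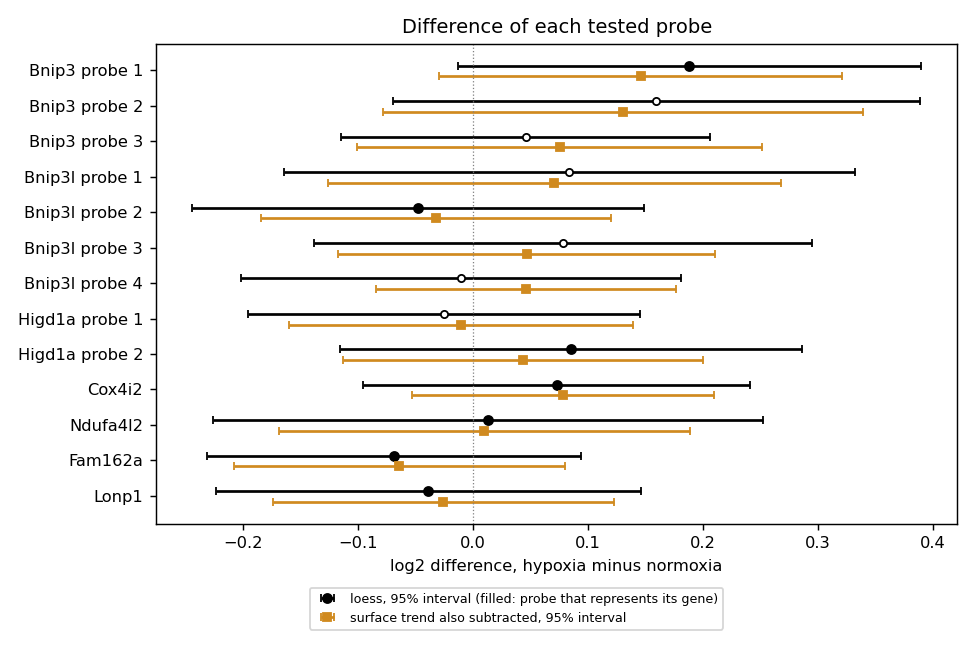
Log2 difference, hypoxia minus normoxia (horizontal axis), of the 13 tested member probes, as a point with its 95% confidence interval. Black circles are the loess-normalized values, filled for the probe that stands for its gene, and orange squares are the values after the trend over the array surface was also subtracted. All intervals cover 0, and the first Bnip3 probe lies farthest from 0 (0.19 and 0.15).

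After the group means were subtracted, probes of one gene followed each other only loosely from mouse to mouse. Over the 10 pairs of probes of the same gene, Pearson's r across the 22 arrays ran from -0.21 to 0.48 with a median of 0.31. It was 0.32 to 0.43 for Bnip3, -0.21 to 0.31 for Bnip3l and 0.48 for the 2 Higd1a probes. These correlations describe 22 arrays that share a pool, slides and scanner, and they have no test.

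The genes whose ratios were most like a member's, by Pearson's r over the 22 arrays after the group means were subtracted, were sought among 12567 genes with a symbol. For Bnip3 they were Cd164 (0.73), Gbp3 (0.72) and Plcb1 (0.71). For Bnip3l they were Sap30l (0.93), Gosr1 (0.88) and Ybx3 (0.88). For Higd1a they were Snrnp35 (0.85), Nudt4 (0.83) and Pam16 (0.80). For the oxidase isoform Cox4i2 they were Aplp1 (0.78), Ndufb1 (0.76) and Inpp4b (0.74), and for Ndufa4l2 they were Pigq (0.86), Col6a3 (0.85) and Cers4 (0.85). For Fam162a they were Med10 (0.83), Utp3 (0.82) and Rmdn1 (0.82), and for Lonp1 they were Septin7 (0.90), Zranb2 (0.88) and 9130401M01Rik (0.88). These values are the highest of 12567 for each member and are a description.

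The positions of these probes on the array were also looked up for the 6 members with a single spot per probe. Of their 18 most alike genes, 15 lay within 50 spots of the member, at a median distance of 25.6 spots on a grid of 384 rows and 164 columns. The median distance to all genes compared was 121 to 196 spots, depending on the member. Nudt4 lay 2.0 spots from Higd1a, and Gbp3 lay 10.8 spots from Bnip3. Averaged over the 6 members, r with genes under 10 spots away was 0.36, it was 0.17 at 40 to 80 spots, and it was -0.04 beyond 160 spots. The likeness of a member to other genes thus fell with the distance between their spots.

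**Figure D3:**
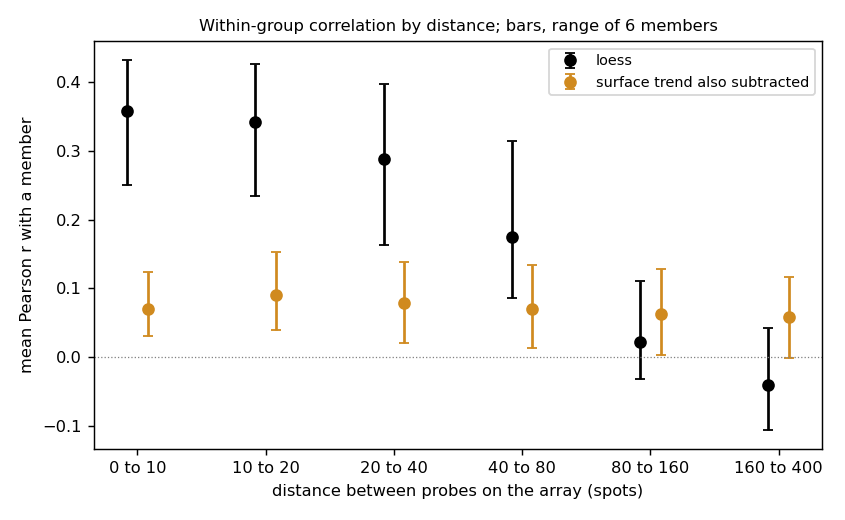
Mean Pearson r between a member and other genes over the 22 arrays (vertical axis) by the distance between their probes on the array in spots (horizontal axis). Points are means of 6 members and bars span the lowest and highest member, before (black) and after (orange) the surface trend was subtracted. Before subtraction the mean falls with distance to -0.04 beyond 160 spots, and after it stays between 0.06 and 0.09. The subtraction itself takes out signal that neighbouring spots share.

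A second set of values was made, after these distances were seen, by subtracting from each spot the mean ratio of the tested spots around it (up to 10 rows and columns away, the spot itself left out). Of the 18 most alike genes found in these values, 0 lay within 50 spots of the member, and their median distance was 146 spots. The step takes out what neighbouring spots share, so this loss of near genes follows at least in part from the step itself. For pairs of probes of one gene, r was higher in 9 of 10 pairs. Pearson's r became 0.41 to 0.60 for Bnip3, -0.18 to 0.69 for Bnip3l and 0.71 for Higd1a, and the median over the 10 pairs was 0.42. The median standard error over all genes fell to 0.08, against 0.10 without this step. The members' differences kept their signs: 0.15 for Bnip3 (unadjusted p = 0.0985), 0.08 for Cox4i2, 0.04 for Higd1a, 0.01 for Ndufa4l2, -0.03 for Bnip3l and Lonp1, and -0.06 for Fam162a. In limma's test of these values 0 of 7 members passed (smallest adjusted p = 0.723), where 1 gene of all tested did (0.00603%).

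The members did not move as one block from mouse to mouse. Over the 21 pairs of measured members, r within groups ran from -0.58 (Bnip3l with Ndufa4l2) to 0.48 (Higd1a with Ndufa4l2), and 14 pairs were above 0. With the surface trend subtracted, r ran from -0.20 to 0.61 (Fam162a with Lonp1), and 18 pairs were above 0.

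Under other choices of processing, Bnip3l, Higd1a, Cox4i2 and Ndufa4l2 turned their sign at least 1 time, while Bnip3, Fam162a and Lonp1 did not, as the plot of every setting shows. Cox4i2 moved most, between -0.01 without slide 1 and 0.33 with the Agilent log ratio. Bnip3 was above 0 under all 14 other choices of background correction, normalization, filter, probe, slide and arrays, between 0.09 and 0.22, and in all 22 settings with 1 array left out, between 0.16 and 0.25. Some of these settings could not change the value of Bnip3, and all share most of their mice, so they are not separate checks. The highest Bnip3 value came without hypoxia replicate 10, with the smallest unadjusted p of any setting (limma, p = 0.0127). In limma's test the unadjusted p for Bnip3 was 0.347 with the Agilent log ratio (0.10 ± 0.11, SE). It was largest, 0.843, in the deposited value table (0.09 ± 0.43, SE). The smallest adjusted p of any member under any setting was 0.709 in limma's test.

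**Figure D4:**
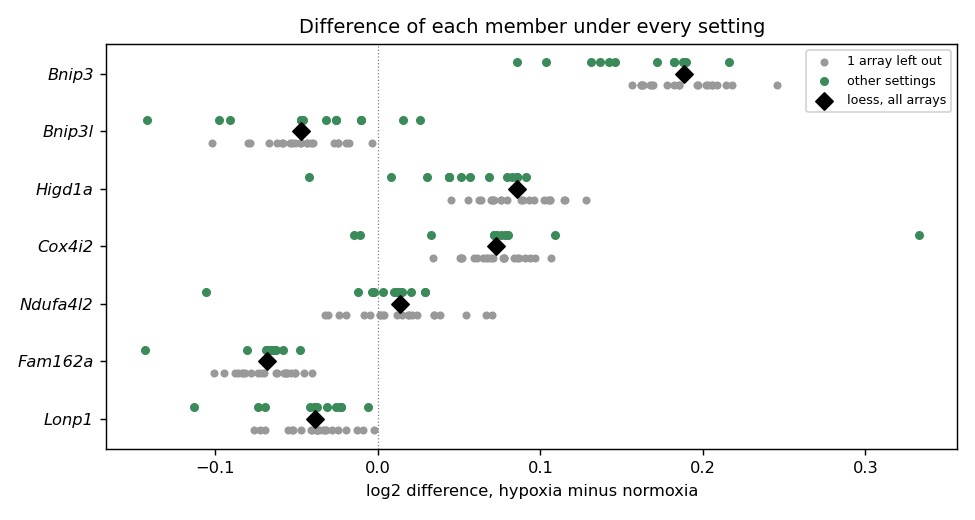
Log2 difference, hypoxia minus normoxia (horizontal axis), of the 7 measured members under every setting. Black diamonds are the loess values of all arrays, grey points leave out 1 array each, and green points are the other settings. Bnip3 stays above 0 in all of them, Fam162a and Lonp1 stay below 0, and the Cox4i2 point at 0.33 is the Agilent log ratio.

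Genes that work with the members were read from lists, of which none had a member past the adjusted threshold. Of 21 mitophagy receptors, adaptors and regulators, all measured, 13 lay above 0 and 0 had an unadjusted p under 0.05, with a median of 0.02. Fundc1, a mitophagy receptor that also answers to low oxygen, differed by 0.11 ± 0.08 (SE), and Ulk1, the kinase that starts autophagy, by -0.12 ± 0.10. The autophagosome proteins that Bnip3 and Bnip3l bind gave 0.08 for Map1lc3b and -0.01 for Gabarapl1. The proteins Bcl2 (0.03), Bcl2l1 (0.04) and Rheb (0.08), known partners of the receptors, were as close to 0. Of 9 measured fission and fusion genes 3 lay above 0, and 1 had an unadjusted p under 0.05, the fission protein Mtfp1 (-0.24 ± 0.10, adjusted p = 0.865 in limma's test). The fusion protein Mfn2 gave -0.09. The shares over all genes tested stand beside these counts and those of the later lists. An unadjusted p under 0.05 was found for 2.58% higher in hypoxia and 2.73% lower, and 50.4% lay above 0.

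Of 21 measured cytochrome c oxidase subunits and assembly factors, 11 lay above 0, with a median of 0.01. The common isoform Cox4i1 differed by 0.07 ± 0.11 (SE), beside 0.07 for its relative Cox4i2. Ndufa4 differed by 0.12 ± 0.12, beside 0.01 for Ndufa4l2. The relatives of Higd1a gave -0.11 ± 0.07 for Higd2a and 0.20 ± 0.09 for Higd1b, the one gene of this list with an unadjusted p under 0.05 (adjusted p = 0.873, limma). Of the 14 mitochondrial proteases and chaperones, 7 lay above 0 and 0 had an unadjusted p under 0.05. Hspa9, the matrix chaperone of import, differed by 0.18 ± 0.09, the protease subunits Clpx and Clpp by 0.12 and 0.06, and the chaperonin Hspd1 had the same mean of 0.15 in both groups.

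In the Myc, Max and Mxd network, to which Mxi1 belongs, 6 of 10 measured genes lay above 0. Mxd1, another Max partner, differed by 0.22 ± 0.10 (SE) and Mlxipl, the glucose-sensing factor ChREBP, by -0.27 ± 0.09, both with an unadjusted p under 0.05 (limma, adjusted p = 0.892 and 0.746). Myc gave 0.12 and Max 0.13. Of 12 regulators of mitochondrial biogenesis 2 lay above 0 and 10 below, with a median of -0.05. Of these, Esrra, a nuclear receptor that drives mitochondrial genes, differed by -0.26 ± 0.08 and Tfb1m, a mitochondrial ribosomal RNA methyltransferase, by -0.26 ± 0.12, both with an unadjusted p under 0.05 (limma, adjusted p = 0.513 and 0.920). Ppargc1b, a coactivator that Mxi1 is reported to lower through Myc in human cells, gave -0.02.

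The oxygen-sensing genes upstream of the members were measured in part. Hif1a differed by 0.10 ± 0.10 (SE) and Epas1, which encodes the second HIF alpha subunit, by -0.17 ± 0.12. Vhl differed by 0.31 ± 0.13 and the oxygen sensor Egln2 by -0.21 ± 0.07, both with an unadjusted p under 0.05 (limma, adjusted p = 0.865 and 0.746). Egln1, Egln3, Arnt2 and Hif1an did not reach the filter for dim probes. Of 22 measured HIF targets outside the members, 16 lay above 0 with a median of 0.08, and 6 had an unadjusted p under 0.05, all higher in hypoxia. Over all genes tested 50.4% lay above 0, and 2.58% had an unadjusted p under 0.05 and were higher. The smallest p-values of this list belonged to the lactate exporter Slc16a3 (0.45 ± 0.13) and the glycolytic kinase Pgk1 (0.27 ± 0.08), whose probe the files and RefSeq place on different chromosomes. Pdk1, which holds pyruvate back from mitochondria, gave 0.19 ± 0.10, and Vegfa, the vessel growth factor, -0.06 ± 0.10. The difference between this list and the members was not tested, and the list was chosen with earlier results of these data known.

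**Figure D5:**
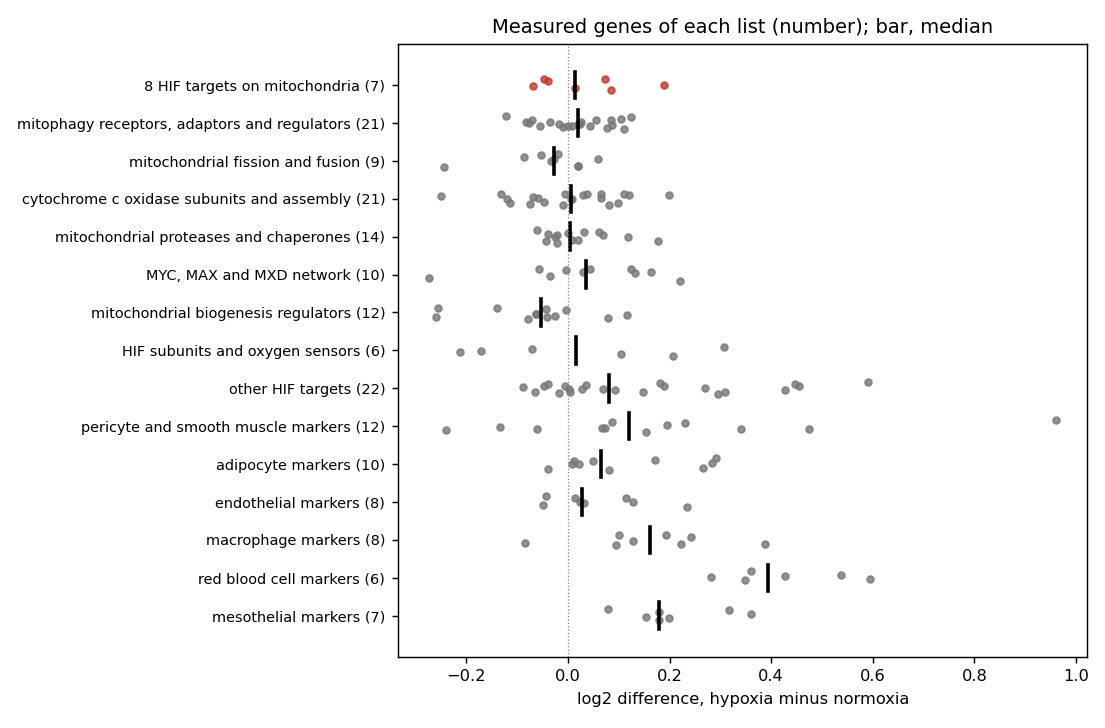
Log2 difference, hypoxia minus normoxia (horizontal axis), of each measured gene, with the 7 measured members in red on the top line and the genes of 14 lists in grey, the number measured in brackets. Black bars are medians: 0.01 for the members, 0.08 for other HIF targets and 0.39 for red blood cell markers. The sperm markers, of which 4 were measured, are not drawn.

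Markers of cell types in the fat pad were read beside the members, and none passed the adjusted threshold. Of all genes tested, 50.4% lay above 0, and an unadjusted p under 0.05 was found for 2.58% higher and 2.73% lower. Cox4i2 and Ndufa4l2 are known from pericytes and smooth muscle cells of vessels in mice, and of 12 markers of those cells, all measured, 9 lay above 0 with a median of 0.12, and an unadjusted p under 0.05 was found for 3 higher and 1 lower. For a mean of the list in each mouse, every gene was first centred on its mean over all arrays. This centred mean ran from -0.14 to 0.29 in hypoxia mice and from -0.27 to 0.19 in normoxia mice. Tagln (0.47 ± 0.16, SE) and Acta2 (0.34 ± 0.12) had the smallest unadjusted p of the list. The 1 lower was Cspg4 (-0.24 ± 0.10), and Abcc9 (-0.13) and Mcam (-0.06) also lay below 0. The list pools both cell types, so it does not describe pericytes alone. Endothelial markers had a median of 0.03 (6 of 8 above 0), with Kdr at 0.23 and Emcn at 0.13, while Tek (-0.05) and Esam (-0.04) lay below 0. Macrophage markers had a median of 0.16 (7 of 8, of which 2 had an unadjusted p under 0.05), with C1qb at 0.39 and C1qa at 0.24. Adgre1 (-0.09) lay below 0. Mesothelial markers had a median of 0.18 (7 of 7), with Gpm6a at 0.36 and Upk3b at 0.32. Adipocyte markers had a median of 0.06 (9 of 10), with Lep at 0.28 and Fabp4 at 0.29, while Car3 (-0.04) lay below 0.

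Bnip3l is abundant in red blood cell precursors, and 6 of 6 measured red blood cell markers lay above 0 with a median of 0.39. The share of all genes tested above 0 was 50.4%, and 2.58% were higher with an unadjusted p under 0.05. An unadjusted p under 0.05 was found for 4 of the red blood cell markers. The smallest belonged to Hba-a1 (0.60 ± 0.17, SE) and Hbb-b2 (0.43 ± 0.17), whose near-identical copies can share probes. The mean of the list, again centred per gene, ran from -0.39 to 1.06 in hypoxia and from -0.75 to 0.73 in normoxia mice. Sperm markers, which can enter with the epididymis, had 0 of 4 measured genes above 0 with a median of -0.53, with Smcp at -0.78 and Prm2 at -0.65. Their mean, also centred per gene, spanned -1.30 to 1.69 in hypoxia mice and -1.60 to 3.26 in normoxia mice.

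Within groups, 49 correlations of the 7 members with the mean ratios of the 7 cell type lists were computed, and 0 passed the adjustment over the 49 (permutation test with 100000 resamples, two-sided). Higd1a had the highest with endothelial markers, with a Pearson's r of 0.62 (permutation p = 0.00428, adjusted p = 0.121) and a Spearman's rho of 0.63 (permutation p = 0.00424, adjusted p = 0.208). Without the 2 mice farthest from the median of the marker list, r was 0.68, with slide means removed it was 0.62, and with the surface trend subtracted it was 0.59. Ndufa4l2 followed with an r of 0.57 to the same list (permutation p = 0.00495, adjusted p = 0.121) and a rho of 0.51 (permutation p = 0.0164, adjusted p = 0.253), and without the 2 farthest mice its r was 0.41. Cox4i2 and Ndufa4l2 had r of -0.11 and -0.18 with the pericyte and smooth muscle list (permutation p = 0.628 and 0.426), and Bnip3l had 0.34 with red blood cell markers (permutation p = 0.134). The part of cell composition in the members' values was not tested further.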

How the data were processed

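RNA of epididymal fat was measured on 2-colour arrays, with each mouse in Cy5 and the pool in Cy3 and no dye swap. A dye effect common to all arrays cancels between the groups. Scanning output came from Agilent Feature Extraction 10.7.3.1, as the submitters' processing notes and the headers state. The mean signals and local backgrounds in the deposited files are raw intensity values. Per the file headers, the deposited log10 ratio of Cy5 over Cy3 had already been corrected for background and dye by that software. The authors' deposited table of values holds log2 levels with the same median on every array, and its normalization is not stated. Probe positions are those of the files, on mm9, and the exon or UTR under a probe was not analysed here.

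Signals were background-corrected (normexp, offset 50) and normalized by loess within arrays in limma 3.58.1 under R 4.3.3. Control spots had weight 0 and outlier-flagged spots were dropped, while saturated spots were kept. Spots of a probe were averaged, and a gene was represented by its brightest tested probe. Tested probes had Cy5 well above background on 10 or more arrays and 2 or more unflagged values per group. Of 3729 genes with several tested probes, 1714 had probes of both signs. The test was lmFit and eBayes with group as the only term, adjusted by Benjamini-Hochberg over 16576 genes at 0.05. The labels call the samples of a group biological replicates. The number of arrays limits the precision. On data simulated for this comparison with 16576 genes, 83 of 100 genes changed by 0.5 and 97 of 100 changed by 1 (log2) were recovered, with 3 false calls. These shares belong to the simulated spread and number of changed genes, and do not carry over to a single measured gene. In the measured data the highest difference of any gene, 1.13, did not pass. Hba-a1, at 0.60, did not pass either (limma, adjusted p = 0.499).

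The members and lists were chosen with earlier results of these data known. The text names all members, the 2 genes of each list with the smallest unadjusted p, fixed partners and paralogs of the members, and the 3 genes most alike to each member. The pericyte and smooth muscle, endothelial, macrophage and adipocyte markers below 0 are named as well. For gene names, RefSeq (GRCm38.p6) matched 27235 probes by accession, 3581 by symbol and 565 by synonym, while 24300 kept the array's own name. Promoters came from RefSeq on the same assembly, for 5 of the 8 members. Alternatives changed the background correction, the normalization, the probe filter, the choice of probe, the slide and the arrays used. The subtraction of the surface trend was chosen after seeing the data.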

Additional observations from a re-analysis of the deposited data

How the results depend on the processing

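In limma's test 0 of the 7 measured members passed under 14 other choices of processing or arrays, 22 that left out 1 array each, and the surface trend subtraction chosen after seeing the data. With probes required above background on all arrays, Cox4i2 and Ndufa4l2 were not tested. Bnip3, Fam162a and Lonp1 kept their sign in all settings, though some settings could not change the value of Bnip3. Signs turned, always without a call, for Bnip3l with the Agilent log ratio (0.016) and with the mean over its tested probes (0.026), for Higd1a in the deposited value table (-0.043), and for Cox4i2 in that table (-0.011) and without slide 1 (-0.015). The deposited table holds log2 levels and not ratios to the pool. Standard errors in it were 0.36 for Higd1a, 0.26 for Ndufa4l2 and 0.11 for Cox4i2. Ndufa4l2 turned without background subtraction (-0.0024), in the deposited value table (-0.11) and with the replicate block (-0.012). It also turned without the 3 arrays with the largest share of Cy3 spots well above background (-0.0037), and it ran from -0.033 to 0.070 when 1 array was left out. Over all genes tested, 0 passed in the reported fit, 1 with the Agilent log ratio, 2 with probes above background on all arrays, 2 with slide as a fixed block, 1 with slide as a random block, 2 without slide 1, 4 with array weights, 1 with the surface trend subtracted, and 0 to 3 with 1 array left out (3 without hypoxia replicate 7). The cause was not tested. With the replicate number as a block on 20 arrays, Bnip3 differed by 0.22 (unadjusted p = 0.0457) and 0 members and 0 genes passed. Same-numbered arrays did not deviate together, with correlations of -0.47 to 0.25: 2 of 10 pairs were above 0.1, and 0 of 10 arrays correlated best with their own number. Low signal limits Cox4i2, Ndufa4l2 and Mxi1.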
